A study of Mus musculus with 2 samples.

Results

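Csf3-positive tumour cells were the tumour cells of a mutant IDH1 mouse brain tumour in which at least 1 transcript of Csf3, the gene of granulocyte colony-stimulating factor (G-CSF), was captured. A barcode entered the tumour gate with at least 200 detected genes, at most 15 percent mitochondrial counts, at least 10000 unique molecular identifiers (UMIs, each standing for 1 captured transcript), at least 1000 CPM of Nras (CPM, counts of a gene per 1000000 counts of the cell or sum) and at most 1 UMI of the myeloid genes Tyrobp and Fcer1g together. Of 4970 barcodes, 1886 passed this gate, 1032 in replicate 1 and 854 in replicate 2. A Csf3 UMI was found in 311 of them, 176 in replicate 1 and 135 in replicate 2. These cells were thus chosen by their own measured Csf3, Nras, Tyrobp and Fcer1g counts, and the Csf3 and Nras values below are descriptions.

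The tumour was labelled mIDH1 and was taken from the brain of C57BL/6 mice at the symptomatic stage. It was measured as 2 droplet libraries, replicates 1 and 2 of a single group, with no tumour of another genotype and no treatment beside them. The labels did not say whether the libraries came from separate animals, so p-values rest only on these libraries, whose spread may be technical. The edgeR test used below took its spread from all genes together. Its p-value and standard error (SE) for a gene thus do not measure how far the libraries agreed on that gene. The title of the series concerns G-CSF released by mutant IDH1 glioma stem cells and its effect on myeloid cells, and the comparison made here addresses which other genes were higher or lower in the tumour cells that held Csf3 transcripts.

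G-CSF is a secreted cytokine that binds the receptor encoded by Csf3r on neutrophils and their precursors, drives the production of neutrophils in bone marrow and releases them into blood. In stromal, endothelial and epithelial cells its gene is induced by interleukin-1, tumour necrosis factor, interleukin-17 and bacterial products, through NF-kB and C/EBP transcription factors. Its messenger RNA is short-lived, being bound through AU-rich elements by decay proteins. NF-kB is held in the cytoplasm by IkB proteins such as the product of Nfkbia, which is itself an NF-kB target and so serves as a negative feedback.

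Replicate 1 held 2704 barcodes with 63001350 UMIs and replicate 2 held 2266 barcodes with 58915133. The scrublet caller marked 11 and 3 barcodes as doublets, of which 1 was in the gate and 0 were Csf3-positive. The libraries shared 10 barcode sequences, none of them between gated cells. Vim, a filament protein of glial progenitors and mesenchymal cells, stood at 3017 CPM and 3077 CPM in the Csf3-positive cells of the replicates, and the progenitor filament gene Nes at 104 CPM and 108 CPM. Tnc and the stem cell factor Sox2 were also above 10 CPM in both, so that 4 of 9 glioma markers were, while Olig2, Ptprz1, Fabp7 and Bcan were at or near 0. The 12 macrophage and microglia markers summed to 27.5 CPM and 31.8 CPM in the positives, against 25.5 CPM and 26.7 CPM in the matched negatives described below, with Apoe the most abundant in each.

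Csf3 was found in a minority of gated cells, at a few transcripts each. The share of gated cells with a Csf3 UMI was 17.1% in replicate 1 (exact binomial 95% interval 14.8% to 19.5%) and 15.8% in replicate 2 (13.4% to 18.4%). These intervals cover counting error only. The share rose with the depth of the cell: over both libraries it was 1.45% of 69 cells with 10000 to 20000 UMIs, 8.39% of 632 with 20000 to 40000, 18.5% of 913 with 40000 to 80000 and 32.4% of 272 with at least 80000. After each cell was thinned to 10000 UMIs it was 5.72% and 4.57%. A Csf3-negative cell is therefore one in which no transcript was captured at its depth, and not one shown to lack it. The summed level over all gated cells was 9.08 CPM in replicate 1 and 7.65 CPM in replicate 2. By depth it was 0.915 CPM, 5.52 CPM, 9.87 CPM and 8.16 CPM in the same 4 classes over both libraries, the first from 1 Csf3 UMI. Replicate 1 had 1.53, 4.42, 12.8 and 7.09 CPM, and replicate 2 had 0, 7.41, 6.94 and 9.06 CPM. The shallowest class was thus the lowest in each library, while the libraries ordered the other classes differently.

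Cells of another type gave the background. Among 290 barcodes with at least 10 UMIs of Tyrobp and Fcer1g and at least 10000 UMIs in all, 4 held Csf3, and all 4 were also at or over the Nras gate. Of the other 275, with Nras under the gate, 0 held a Csf3 UMI, which allows a share of up to 1.09% by the limit of 3 counts in 275 cells (exact 95% upper limit 1.33%). Their median depth was 13812 UMIs against 45526 in the gated cells. Thinned to 10000 UMIs the myeloid share was again 0 of 275, against 98 of 1886 gated cells. Of all 884 Csf3 UMIs in the libraries, 844 lay in the gate. The 40 outside lay in 21 barcodes, 13 of them barcodes that missed the Nras threshold. At the edge of the gate, 9 of 39 cells with 1000 to 1100 CPM of Nras held Csf3, as did 7 of 31 otherwise eligible cells with 900 to 1000 CPM. At the depth threshold, 0 of 5 cells just inside and 0 of 6 just outside held it.

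**Figure D1:**
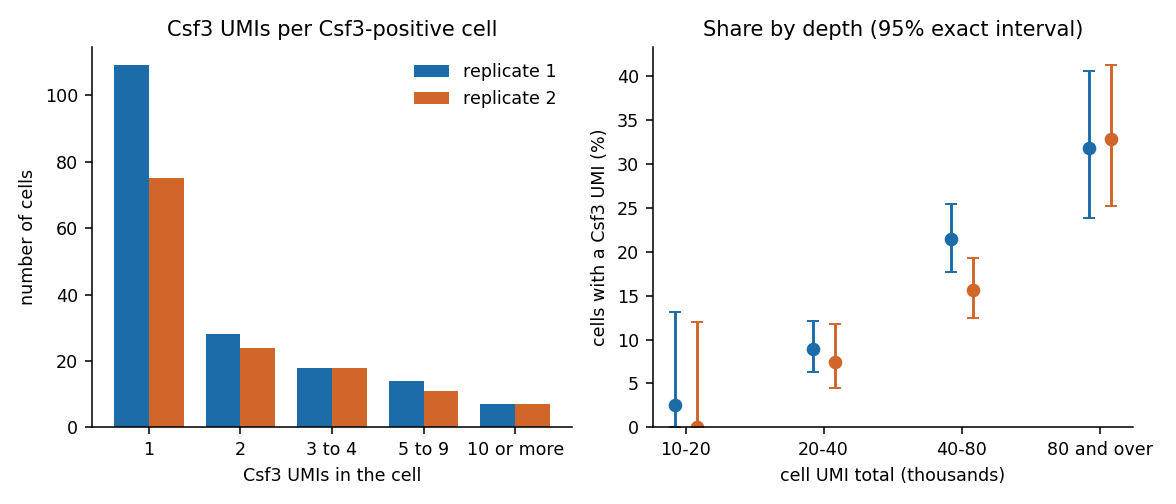
Left, number of Csf3-positive cells (vertical axis) by Csf3 UMIs in the cell, for replicates 1 and 2. Right, share of gated tumour cells with a Csf3 UMI in percent, by cell UMI total, with exact binomial 95% intervals; most positive cells held 1 Csf3 UMI, and the share rose from 1.45% to 32.4% over both libraries from the shallowest to the deepest cells.

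Csf3 transcripts were spread unevenly among the positive cells. A single UMI was found in 184 cells, 2 in 52, 3 to 4 in 36, 5 to 9 in 25 and 10 or more in 14. The last 14 cells, 7 from each library, held 33.2% of all Csf3 UMIs in the gate, and the 32 positive cells with the most Csf3 UMIs held 47.5%. The highest cell, from replicate 1, had 53 Csf3 UMIs or 1133 CPM, followed by 34 UMIs (787 CPM) in another cell of replicate 1 and 33 UMIs (605 CPM) in a cell of replicate 2. Both libraries thus had a long upper tail. The cells with 10 or more were not the deepest, with a median of 51674.5 UMIs against 55570 in cells with 1 Csf3 UMI.

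The positive cells did not form a cluster of their own when gated cells were grouped without Csf3 among the features. They were found in each of 7 clusters, which are numbered and described by leading genes only. Cluster 3, led by the histone and mitotic genes Hist1h2ap, Pbk, Prc1 and Top2a, had 19.1% of 491 cells positive, and cluster 4, led by the interferon-induced genes Gbp4 and Cxcl10 and by Hbb-bt and Cd74, had 19.1% of 257. Cluster 2, led by Cdsn and Prr32, had 15.8% of 562 cells positive, and cluster 0, led by Igkc, Cryab and the heat shock gene Hspa1b, had 15.8% of 311. The share was lower in cluster 1, led by H19, Mgp and Islr, at 8.0% of 150 cells (95% interval 4.20% to 13.6%). Median depth differed between these clusters as well, from 31095 UMIs in cluster 1 to 58276 in cluster 3, and its part in the shares was not tested. The Csf3 level ordered the clusters differently: cluster 0 had 15.5 CPM, cluster 2 8.82 CPM, cluster 3 7.44 CPM, cluster 4 6.42 CPM, cluster 5 (led by Cdkn3 and Ccnb2) 5.18 CPM and cluster 1 3.73 CPM. Cluster 0 was highest in both libraries, with 19.1 CPM and 11.7 CPM, and it held 212 of the 844 Csf3 UMIs in 49 positive cells.

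For the comparison with Csf3-negative cells, each positive cell was paired with 2 gated cells of the same library that had 0 Csf3 UMIs and a similar UMI total. This left 304 positives (175 and 129) and 606 negatives (348 and 258), and 7 positives with at least 155423 UMIs found no partners. Matching was needed because the positives were deeper, with medians of 53945.5 UMIs and 61021 UMIs against 40484 and 46195 in all Csf3-negative gated cells. After it the medians were 53901 against 53676 in replicate 1 and 59147 against 59224.5 in replicate 2. Median genes per cell were 6479 against 6507 and 6757 against 6729.5, and median mitochondrial shares 3.30% against 3.26% and 3.47% against 3.64%. Counts were summed per library and class, so that each gene had 4 values, and are given below as CPM of these sums.

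Nfkbia, the gene of an NF-kB inhibitor, the immediate early gene Ier3 and the transcription factor genes Irf1, Cebpd and Junb were higher in the Csf3-positive cells of both libraries, together with Med24, the gene next to Csf3. In all, 205 of 11681 tested genes (1.75%) were called at an adjusted p under 0.05 in edgeR's quasi-likelihood test with the library as a block. Of these, 151 (1.29% of those tested) were higher and 54 (0.462%) lower in the positives, 140 and 48 of them in the same direction in both libraries. The shares of 1.29% and 0.462% are the background for the counts of called genes in each list below. A log2 fold change of at least 0.5 in size was reached by 56 and 23. Most differences were small, and the median over all tested genes was 0.00 on the log2 scale. With only 4 sums, edgeR found a single spread for all genes, so a gene with many transcripts in 1 cell, or one that differs in 1 library only, can be called. In 37 of the higher genes 1 cell held at least 20 percent of the positives' UMIs in a library, and in 17 of the lower genes 1 cell held as much of the negatives'. DESeq2 estimates a spread for each gene and draws it towards a trend over all genes. It called 14 genes higher and 0 lower (81 and 30 at an unadjusted p under 0.05). All 14 were among edgeR's calls (0.12% of those tested). DESeq2 gave an adjusted p for 99 of the 151 higher genes, and none for 6115 of the 11681 tested. These 14 are given first.

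**Figure D2:**
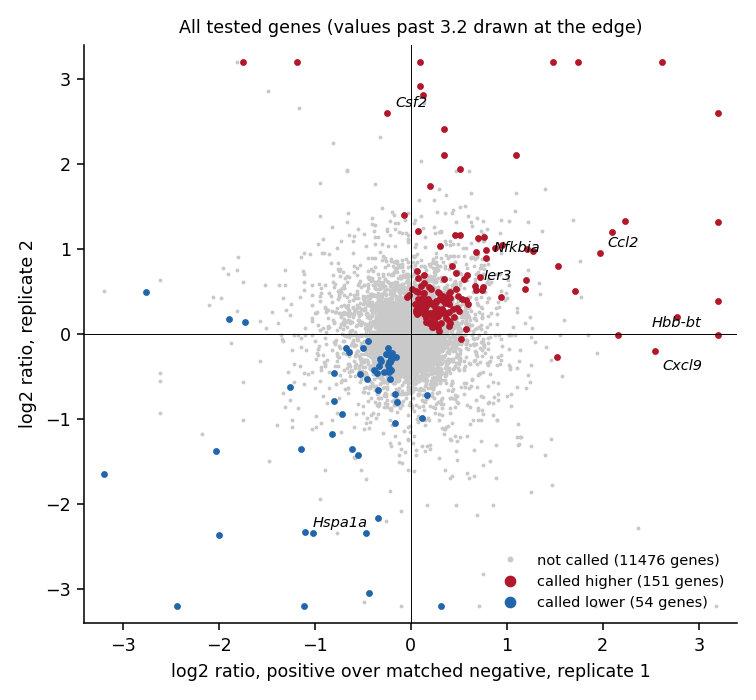
Each point is 1 tested gene, with the log2 ratio of Csf3-positive over matched Csf3-negative cells in replicate 1 (horizontal axis) and replicate 2 (vertical axis); red and blue points were called higher and lower by edgeR. Nfkbia, Ier3 and Ccl2 lie in the upper right, higher in both libraries, while Hbb-bt, Cxcl9 and Csf2 are high in 1 library only.

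Nfkbia encodes the inhibitor IkB-alpha. Its level was 187 CPM in the positives of replicate 1 and 194 CPM in those of replicate 2, against 109 CPM and 104 CPM in the matched negatives. Both positive sums lay above both negative sums, and the log2 fold change was 0.86 (SE 0.05; edgeR adjusted p = 3.7e-52, DESeq2 adjusted p = 2.8e-16). No single cell held more than 6.55% of its UMIs in any sum. Ier3, an immediate early gene that is induced by NF-kB and growth factors and modulates cell survival, stood at 580 CPM and 513 CPM in the positives against 364 CPM and 348 CPM, a log2 fold change of 0.64 (SE 0.05; edgeR adjusted p = 2.7e-36). The groups did not overlap. Irf1, an interferon- and NF-kB-induced transcription factor, was at 118 CPM and 97.0 CPM against 70.7 CPM and 68.0 CPM, a log2 fold change of 0.65 (SE 0.06). In GRCm38 (GENCODE M21) Nfkbia lies at chr12:55489410-55492647, Ier3 at chr17:35821684-35822923 and Irf1 at chr11:53770014-53778374.

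Promoters of 4 called genes are shown because NF-kB binding sequences are part of how Nfkbia and other feedback genes are known to be induced. They were picked because they hold a match to the pattern searched, while the windows of Ier3 and Traf1 hold none. The windows are the 250 bases before the transcription start, on the gene's strand, from RefSeq (GRCm38.p6). Capitals mark matches to the NF-kB pattern searched on both strands (GGGA, any 4 bases, then CC), which are a description of the letters and not shown sites. Nfkbia (chr12:55492648-55492897, minus strand) has 2 matches, and Irf1 (chr11:53769764-53770013, plus strand), Tnfaip3 (chr10:19015411-19015660, minus strand) and Ccl20 (chr1:83116516-83116765, plus strand) have 1 each in the windows printed.
Nfkbia: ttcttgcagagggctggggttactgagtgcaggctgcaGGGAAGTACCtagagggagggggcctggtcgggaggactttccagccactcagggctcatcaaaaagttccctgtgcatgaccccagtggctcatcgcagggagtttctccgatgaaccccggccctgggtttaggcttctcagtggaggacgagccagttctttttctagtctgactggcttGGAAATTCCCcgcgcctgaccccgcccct
Irf1: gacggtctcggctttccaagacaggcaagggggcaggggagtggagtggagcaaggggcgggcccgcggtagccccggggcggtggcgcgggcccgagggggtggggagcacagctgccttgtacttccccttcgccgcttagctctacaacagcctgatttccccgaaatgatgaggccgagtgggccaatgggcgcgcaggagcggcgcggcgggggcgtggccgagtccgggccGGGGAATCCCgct
Tnfaip3: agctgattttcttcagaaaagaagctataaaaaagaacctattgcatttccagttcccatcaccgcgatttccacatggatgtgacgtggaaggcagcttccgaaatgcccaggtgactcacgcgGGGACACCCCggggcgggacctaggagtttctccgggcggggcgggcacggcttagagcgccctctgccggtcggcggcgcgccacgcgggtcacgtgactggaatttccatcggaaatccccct
Ccl20: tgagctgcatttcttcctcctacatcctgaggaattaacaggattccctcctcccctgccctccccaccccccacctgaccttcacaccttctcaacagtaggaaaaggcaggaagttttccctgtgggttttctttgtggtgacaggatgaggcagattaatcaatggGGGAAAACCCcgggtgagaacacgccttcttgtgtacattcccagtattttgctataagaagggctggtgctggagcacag
Of the 14 genes called by both tools, 10 had a window in the table, and 3 of these (Nfkbia, Irf1 and Idh1) held a match in at least 1 window. Of all 27025 genes with a window 19.7% did. The C/EBP pattern TTGCNNAA was in 1 of the 10 genes, against 10.8% of all genes, and the AP-1 pattern TGANTCA in 0 of 10, against 7.82%. Csf3 and Med24 were not matched in the table.

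Transcription factors of the C/EBP and AP-1 families followed. Cebpd, which encodes C/EBP-delta, an inflammation-induced factor, was at 36.7 CPM and 34.7 CPM in the positives and at 16.1 CPM and 24.1 CPM in the negatives, a log2 fold change of 0.88 (SE 0.09; DESeq2 adjusted p = 0.030). Its close relative Cebpb, already at 433 CPM and 467 CPM in the negatives, was higher by 0.18 (SE 0.05; edgeR adjusted p = 0.019), which DESeq2 did not call. Junb, an AP-1 subunit, was at 305 CPM and 354 CPM against 254 CPM and 273 CPM, a log2 fold change of 0.34. Egr1, a growth factor-induced zinc finger factor, was at 65.9 CPM and 105 CPM against 51.8 CPM and 67.2 CPM, a log2 fold change of 0.53, with the positives of replicate 1 below the negatives of replicate 2. Of the 21 genes of the C/EBP, AP-1 and immediate early list, 5 were called higher (Cebpb, Cebpd, Junb, Egr1 and Ier3) and 1 lower (Fosb, by 0.40), and the median was 0.05. Of all tested genes, 1.29% were called higher and 0.462% lower.

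Med24 encodes a subunit of the Mediator complex, which links transcription factors to RNA polymerase. It was at 60.5 CPM in the positives of replicate 1 and 55.8 CPM in those of replicate 2, against 35.0 CPM and 28.2 CPM in the negatives, a log2 fold change of 0.90 (SE 0.07; edgeR adjusted p = 2.2e-30, DESeq2 adjusted p = 3.9e-05). The groups did not overlap, and no cell held more than 4.06% of its UMIs in a sum. Med24 lies beside Csf3 on chromosome 11. In GRCm38 (GENCODE M21) Csf3 (ENSMUSG00000038067) spans chr11:98701263-98703629 on the plus strand and Med24 (ENSMUSG00000017210) spans chr11:98704591-98729435 on the minus strand, so the genes face each other, with 962 bases between their 3′ ends. The labels do not say whether counting used strand, and whether transcripts of one gene were counted for the other was not tested.

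Of the 10 nearest protein-coding genes on each side of Csf3, 11 had enough counts to be tested and Med24 was the only one called. Psmd3, a proteasome subunit gene whose end lies 5284 bases before Csf3, was at 116 CPM and 110 CPM in the positives and 111 CPM and 117 CPM in the negatives, with a log2 fold change of 0.01 (SE 0.06). Thra, the thyroid hormone receptor gene 37009 bases after Csf3, had 0.22 (SE 0.11; edgeR adjusted p = 0.45). Ormdl3, a regulator of sphingolipid synthesis 113895 bases before it, had -0.20 (SE 0.10). The other 7 tested neighbours, among them the circadian repressor gene Nr1d1 (0.47, SE 0.27) and Gm12355 (-0.50, SE 0.39), did not pass the test either, and their errors were wide where counts were low.

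**Figure D3:**
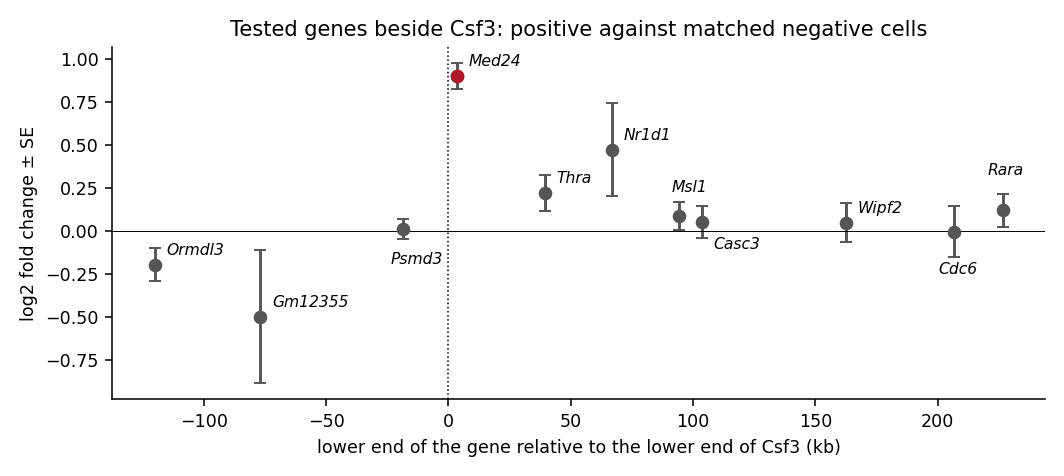
Log2 fold change of Csf3-positive over matched Csf3-negative cells (± SE from edgeR) for the 11 tested genes nearest Csf3, by the distance of the gene's lower end from that of Csf3 in kilobases. The SE rests on the spread shared by all genes and does not measure how far the libraries agreed. Med24, in red, is at 0.90, and the other 10 did not pass the test.

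The remaining genes that both tools called were Prss46, Idh1, Prss22, Gm1673, Prdx5, Spp1 and Tmsb4x. Prss46, a serine protease gene, was at 29.9 CPM and 31.2 CPM in the positives against 18.7 CPM and 15.99 CPM, a log2 fold change of 0.83 (SE 0.10). Idh1, the mouse gene of cytosolic isocitrate dehydrogenase, was at 83.7 CPM and 88.7 CPM against 60.2 CPM and 61.3 CPM, a log2 fold change of 0.53 (SE 0.06; DESeq2 adjusted p = 0.020). The groups did not overlap for either gene. The labels do not say how the mutant IDH1 was introduced, and whether any of the transcripts counted as Idh1 were mutant was not tested. The serine protease gene Prss22 (0.40), the uncharacterised gene Gm1673 (0.39), the antioxidant enzyme gene Prdx5 (0.25), the osteopontin gene Spp1 (0.18) and the actin-binding gene Tmsb4x (0.17) had smaller log2 fold changes. In cells with exactly 1 Csf3 UMI, Prss46 (0.37), Prdx5 (0.064), Spp1 (0.092) and Tmsb4x (0.067) were not called (edgeR adjusted p from 0.28 to 0.96). Idh1, Prss22 and Gm1673 were still called higher there. Nras itself, part of the gate, had 2803 CPM and 3271 CPM against 2661 CPM and 2906 CPM, a log2 fold change of 0.14 that did not pass the test (edgeR adjusted p = 0.12).

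**Figure D4:**
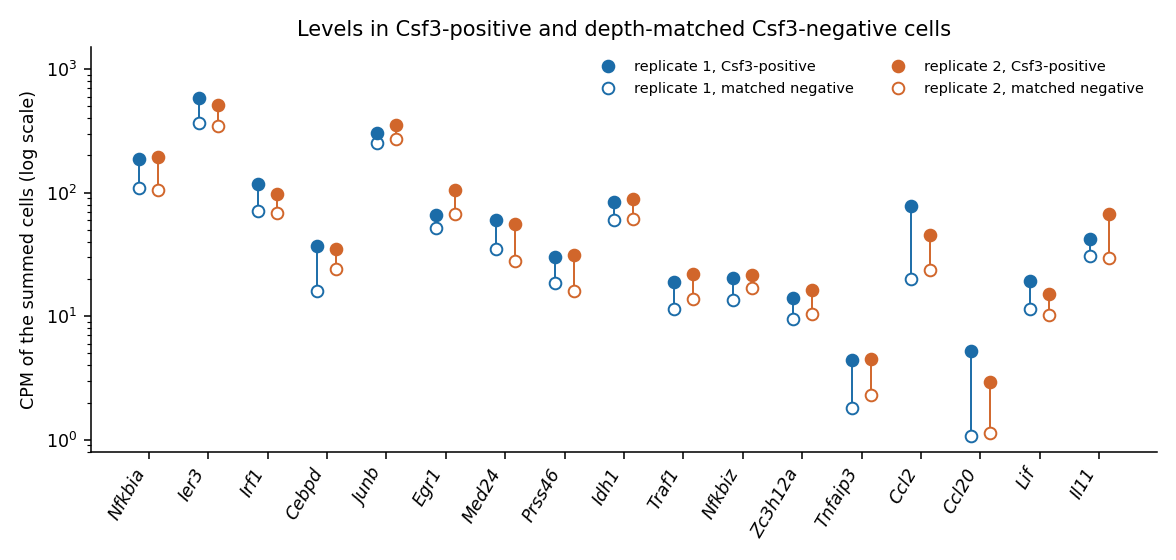
CPM on a log scale in the summed Csf3-positive (filled) and depth-matched Csf3-negative cells (open) of each library, for a choice of the genes called higher. Lines join the values of 1 library. Cxcl9, Cxcl10, Csf2 and Bnip3, which were called higher but not higher in both libraries, are not shown. In each gene and library shown the positive value lies above the negative one, from Nfkbia at 187 and 194 against 109 and 104 CPM down to Ccl20 at 5.18 and 2.94 against 1.07 and 1.14 CPM.

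The levels of several of these genes were also ordered by how many Csf3 transcripts the cell held. Nfkbia was at 109, 157, 198 and 318 CPM in cells of replicate 1 with 0 (the matched negatives), 1, 2 to 4 and at least 5 Csf3 UMIs, and at 104, 162, 185 and 256 CPM in replicate 2. Ier3 was at 364, 535, 586 and 828 CPM, and at 348, 417, 491 and 740 CPM. Both genes stood higher in each successive class of both libraries. Med24 was at 35.0, 48.0, 79.5 and 74.4 CPM in replicate 1, without a rise in the last class, and at 28.2, 41.0, 60.9 and 79.6 CPM in replicate 2. Prss46 was at 18.7, 26.2, 32.4 and 41.4 CPM and at 15.99, 23.2, 27.7 and 66.7 CPM. Not every gene did this: Idh1 was highest in cells with 1 Csf3 UMI in replicate 2 (107 CPM) and was at 67.3 CPM in those with at least 5, and Psmd3 lay between 102 CPM and 118 CPM in all classes. Irf1 was at 70.7, 126, 108 and 89.8 CPM in replicate 1 and 68.0, 93.4, 109 and 67.3 CPM in replicate 2. In replicate 2 its highest class thus lay below the negatives. Egr1 was highest in cells with 1 Csf3 UMI in both libraries (75.5 CPM and 131 CPM). The classes with Csf3 held all positives, also those without partners, and were not matched on depth. Median depth with 1, 5 to 9 and 10 or more Csf3 UMIs was 54960, 52477.5 and 50051 UMIs in replicate 1. In replicate 2 it was 58060, 90087 and 54552 UMIs, and the part of depth in the order was not tested. The highest classes held 21 and 18 cells, so these values are descriptions.

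**Figure D5:**
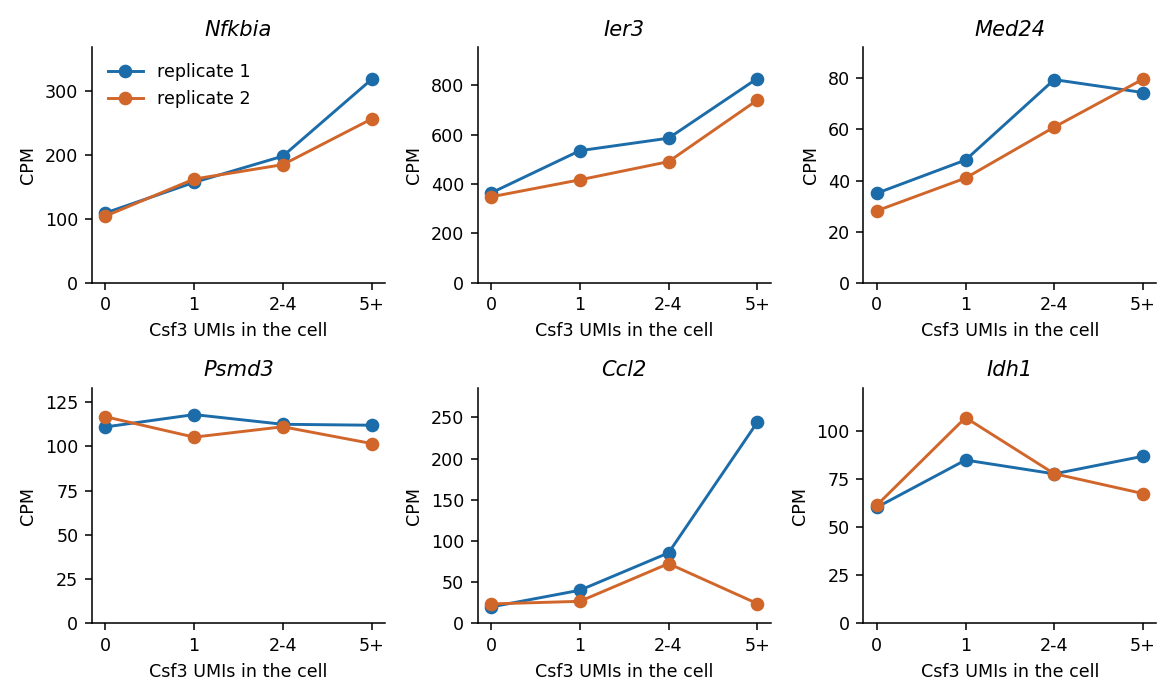
CPM of 6 genes in the summed cells with 0 (matched negatives), 1, 2 to 4 and at least 5 Csf3 UMIs, in replicates 1 and 2. The classes with Csf3 hold all positives and were not matched on depth. Nfkbia and Ier3 stand higher in each successive class of both libraries, Psmd3 is level between 102 and 118 CPM, and Ccl2 reaches 244 CPM in the highest class of replicate 1 but 24.0 CPM in that of replicate 2.

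The NF-kB list as a whole held 18 tested genes, of which 7 were called higher and 0 lower, against 1.29% of all tested genes called higher. Its median log2 fold change was 0.29, and 14 of the 18 were higher in both libraries, against 22.8% of all tested genes. The members called besides Nfkbia were mostly feedback regulators and adaptors. The deubiquitinase gene Tnfaip3 (A20) was at 4.45 CPM and 4.53 CPM against 1.81 CPM and 2.28 CPM, a log2 fold change of 1.16 (SE 0.28). Traf1, an adaptor of tumour necrosis factor receptors, was at 18.8 CPM and 21.8 CPM against 11.4 CPM and 13.7 CPM (0.72, SE 0.11). Nfkbie (0.62) and Nfkbiz (0.50), which encode other IkB-type proteins, Tnip1 (0.46), a partner of A20, and Bcl3 (0.38), a nuclear IkB-type protein, were higher by less. The subunit genes were not called: Nfkb1 had 0.14, Rela 0.05, Relb 0.24 and Nfkb2 0.08. Neither was Sod2, an NF-kB target, which stood at 162 CPM and 153 CPM against 162 CPM and 160 CPM. Of the 7, DESeq2 gave an adjusted p for Nfkbia and Tnip1 only and called Nfkbia.

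The list of receptors and adaptors for inducing signals held 19 tested genes. It was not limited to the inducers of Csf3 named above, and also held genes such as Il6st, Lifr and Ltbr. None of the 19 was called in edgeR's test, and their median was -0.01. At an unadjusted p under 0.05, 2 were higher and 0 lower, and DESeq2 called 0 of the 4 it gave an adjusted p. The most abundant, the TWEAK receptor gene Tnfrsf12a, was at 431 CPM and 420 CPM in the positives against 449 CPM and 458 CPM. The tumour necrosis factor receptor gene Tnfrsf1a was at 61.1 CPM and 57.4 CPM against 57.4 CPM and 55.6 CPM. The interleukin-1 receptor gene Il1r1 was low, at 8.45 CPM and 7.70 CPM against 6.23 CPM and 7.14 CPM. Tnf, Il1b and Il1a, ligands of the tumour necrosis factor and interleukin-1 receptors, were nearly absent from the positives. Tnf had at most 0.0909 CPM in either library, Il1b 0 CPM in both and Il1a at most 0.113 CPM. This did not hold for all ligands of the list. Lif (19.3 CPM and 15.1 CPM) and Il11 (42.3 CPM and 66.9 CPM), which signal through the listed chain Il6st, were present and are described below. Csf3r, the G-CSF receptor gene, was at 0.182 CPM and 0 CPM.

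Secreted factors were higher in part. Ccl2, a chemokine that attracts monocytes, was at 77.8 CPM and 45.5 CPM in the positives against 19.9 CPM and 23.5 CPM in the negatives, a log2 fold change of 1.53 (SE 0.08; edgeR adjusted p = 8.4e-79). The groups did not overlap, but 1 cell held 21.4% of the positives' UMIs in replicate 1 and another 22.1% in replicate 2, and DESeq2 did not call it (adjusted p = 0.55). With the top cell of each sum left out the edgeR adjusted p was 2.5e-14. Ccl20, a chemokine for cells with the receptor CCR6, was at 5.18 CPM and 2.94 CPM against 1.07 CPM and 1.14 CPM (1.90, SE 0.34), with 54.4% of its positive UMIs in replicate 1 from 1 cell. Cxcl9 and Cxcl10, interferon-induced chemokines for T cells, were called higher but only through replicate 1: Cxcl10 was at 261 CPM against 90.8 CPM there and at 92.0 CPM against 111 CPM in replicate 2. The chemokine list thus had 4 of 10 tested genes called higher, against 1.29% of all tested genes, and 0 lower, with a median of 0.29. Cxcl1, Cxcl2, Cxcl3 and Cxcl5, the classical neutrophil chemokines, were at or under 0.226 CPM in the positives and were not tested.

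Among the interleukin-6 family and other cytokines, 3 of 9 tested genes were called higher, against 1.29% of all tested genes, and 0 lower, with a median of 0.46. Il11 was at 42.3 CPM and 66.9 CPM against 30.8 CPM and 29.8 CPM (0.83, SE 0.08), and Lif, which sustains stem cells and signals through the same receptor chain, at 19.3 CPM and 15.1 CPM against 11.4 CPM and 10.3 CPM (0.69, SE 0.12). The groups did not overlap for either. The alarmin gene Il33 was at 6.34 CPM against 0.857 CPM in replicate 2 and at 1.27 CPM against 1.16 CPM in replicate 1. Il6 itself was at 0.363 CPM and 0 CPM. Of the other colony-stimulating factors, Csf2 was called higher through replicate 2 only (13.8 CPM against 2.23 CPM, and 3.73 CPM against 4.42 CPM in replicate 1), while Csf1, at 32.7 CPM and 31.0 CPM against 28.9 CPM and 25.4 CPM, did not pass the test (0.25, SE 0.09; edgeR adjusted p = 0.16). That list had 1 of 7 tested genes called and a median of 0.05.

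Regulators that shorten the life of cytokine messages were mostly level, with 1 of 14 called higher and a median of 0.00. The one called was Zc3h12a (regnase-1), a ribonuclease that degrades inflammatory messages and is an NF-kB target, at 14.0 CPM and 16.3 CPM against 9.54 CPM and 10.4 CPM (0.62, SE 0.13). Of the 17 MAPK feedback genes and targets, Phlda1 was called higher (0.32) and none lower. Of the EGF ligands, urokinase system and matrix proteases, 4 of 17 were higher, among them the ligands Areg (0.27) and Ereg (0.42) and the protease inhibitor gene Serpine2 (0.50), and Timp3 (-0.47) and Mmp3 (-1.06) were lower. Of all tested genes, 1.29% were called higher and 0.462% lower. The direction of Mmp3 was not stable, since 1 cell held 93.7% of its negative UMIs in replicate 1 and with the top cells left out its log2 fold change was 0.61. The prostaglandin E synthase gene Ptges was at 56.7 CPM and 50.02 CPM against 42.7 CPM and 35.6 CPM (0.47, SE 0.07) and was the 1 called of 6 tested prostaglandin genes.

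Genes of hypoxia and glycolysis were higher by small amounts: 6 of 20 tested were called higher and 0 lower, the median was 0.18, and 17 of the 20 were higher in both libraries, against 22.8% of all tested genes. The calls did not hold throughout: 0 remained with exactly 1 Csf3 UMI, with matching within clusters, with thinning, with Nras of at least 2000 CPM and with no library block, and 1 with depth bins, with the mitochondrial limit of 10 percent and without the cells of 10 or more Csf3 UMIs. The glycolytic enzyme gene Pgk1 was at 928 CPM and 994 CPM against 897 CPM and 817 CPM (0.19, SE 0.05), and the phosphofructokinase genes Pfkl and Pfkp had 0.21 and 0.23. Ankrd37, a target of hypoxia-inducible factor, was at 51.0 CPM and 46.8 CPM against 40.3 CPM and 34.5 CPM (0.41, SE 0.08). Egln3, an oxygen sensor, had 0.26. Bnip3, a mitophagy receptor, had 0.23 but was level in replicate 1 (121 CPM against 122 CPM). DESeq2 called none of these 6. Among angiogenesis and TGF-beta signals, 4 of 17 were called higher, against 1.29% of all tested genes, with log2 fold changes of 0.22 for Vegfb, 0.42 for Vegfc, 0.42 for Pdgfb and 0.19 for Tgfb1, and none lower. The median of that list was 0.11. With the top cell of each gene left out 1 was called higher, with exactly 1 Csf3 UMI, thinning, the mitochondrial limit or DESeq2 0 were, and with matching within clusters 0 were higher and 1 lower.

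Of the genes of DNA and histone methylation, the enzymes that the metabolite made by mutant IDH1 is known to inhibit among them, only Idh1 was called of 21 tested, and the median was 0.03. In the neural stem and progenitor list 2 of 14 were called higher, the inhibitors of differentiation Id1 (100 CPM and 89.3 CPM against 76.1 CPM and 74.9 CPM) and Id3 (316 CPM and 276 CPM against 254 CPM and 252 CPM), and none lower. With the top cell of each sum left out, Id3 fell short of the threshold (log2 fold change 0.11 in place of 0.25, edgeR adjusted p = 0.43), and in replicate 2 that cell held 17.1% of the positives' UMIs. The median was -0.01. In the mesenchymal and matrix list Spp1 was higher and the matrix glycoprotein gene Tnc (by -0.34), the calcium-binding gene S100a4 (-0.39) and the collagen gene Col3a1 (-0.90) were lower, out of 20 tested. Of checkpoint and surface ligands Lgals9 was the 1 called higher of 9 tested (0.40).

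Lower genes were fewer, and DESeq2, which gave an adjusted p for 28 of the 54, called none of them. The inducible heat shock genes Hspa1a and Hspa1b were lower in both libraries. Hspa1a was at 4.82 CPM and 4.07 CPM in the positives against 10.4 CPM and 20.7 CPM (-1.70, SE 0.16), and Hspa1b at 18.4 CPM and 13.8 CPM against 27.0 CPM and 37.2 CPM (-0.93, SE 0.10). Hspb1 went opposite ways in the libraries and was not called, and the constitutive chaperones Hsp90ab1 and Hspa8 were not called (0.08 and 0.13), so that 2 of 12 heat shock genes were lower and the median was -0.03. H19, an imprinted long noncoding RNA, was at 5.18 CPM and 3.85 CPM against 11.5 CPM and 9.88 CPM (-1.21, SE 0.17), and Mgp, matrix Gla protein, at 0.273 CPM and 0.226 CPM against 1.67 CPM and 4.51 CPM (-3.45, SE 0.53). For Mgp 1 cell held 72.2% of the negatives' UMIs in replicate 2, and for H19 1 cell held 34.8% in replicate 1 and another 30.1% in replicate 2. With the top cell of each sum left out, H19 and Mgp were still called lower. Both lead cluster 1, which had the lowest share of positives among the larger clusters. Pdlim4 (-2.28), Ifi27l2a (-1.79), Tmem119 (-1.52) and Gm26870 (-1.58) were at 4.61 CPM or less in every sum. For Cryab (-1.94) and Mfap2 (-2.29) 1 cell held 88.7% and 90.9% of the negatives' UMIs in replicate 2, and for Vgf (-2.79) 1 cell held 74.4% in replicate 1 and another 42.9% in replicate 2.

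In the cell cycle lists, 0 of 20 S phase genes were called in edgeR's test, with a median of 0.03 (2 were higher and 1 lower at an unadjusted p under 0.05, and DESeq2 called 0), and 1 of 20 G2 and M phase genes was lower, Birc5 (survivin), at 122 CPM and 107 CPM against 143 CPM and 135 CPM (-0.25, SE 0.06). The median of the G2 and M phase list was -0.15 and 12 of its genes were lower in both libraries, against 32.7% of all tested genes. With no matching on depth Birc5 was level (0.051). In the ATF4 and amino-acid response list Sesn2 was lower (-0.34), 17 of 20 genes were lower in both libraries, and the median was -0.06. For example Atf4 was at 334 CPM and 349 CPM against 363 CPM and 409 CPM, which did not pass the test (-0.15, SE 0.05). Type I interferon genes had 4 of 20 called lower (Ifit2, Ifit3, Rsad2 and Cmpk2), against 0.462% of all tested genes, with a median of -0.03. Ifit2 was at 7.27 CPM and 7.24 CPM against 11.1 CPM and 18.6 CPM, but Ifit3 and Rsad2 were lower in replicate 2 only. With at least 2 Csf3 UMIs asked of the positives, Ifit2 (0.82), Ifit3 (0.84), Rsad2 (0.04) and Cmpk2 (0.52) were on the higher side, so their direction depended on the threshold.

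In 5 further lists edgeR called no gene, and neither did DESeq2 among the members it gave an adjusted p (14 of 15, 1 of 8, 11 of 16, 10 of 14 and 10 of 16, in the order below). H2-D1, B2m and H2-K1, which present antigen to CD8 T cells, were at 1329, 1273 and 1245 CPM in the positives of replicate 1 against 1276, 1222 and 1183 CPM, and the 15 genes of MHC class I presentation had a median of 0.06. Reads can be uncertain between the similar copies H2-D1 and H2-K1. The 8 genes of class II presentation had 0.08, with the invariant chain gene Cd74 at 29.98 CPM and 17.4 CPM against 21.1 CPM and 17.9 CPM. The 16 genes of the p53 pathway, Atrx and DNA damage response had a median of 0.07, with Cdkn2a at 391 CPM and 390 CPM against 374 CPM and 370 CPM. The 14 NRF2 genes had -0.02, with Hmox1 at 63.9 CPM and 61.7 CPM against 64.2 CPM and 66.0 CPM, and the 16 genes of cholesterol synthesis had 0.10, with Msmo1 at 59.1 CPM and 68.0 CPM against 66.0 CPM and 75.1 CPM. At an unadjusted p under 0.05 in edgeR's test, 3 class I genes were higher and 0 lower, 1 class II gene was higher and 1 lower, 1 p53 gene was higher and 1 lower, 1 NRF2 gene was higher and 2 lower, and 3 cholesterol genes were higher and 2 lower. A miss of the threshold does not show that these genes were equal.

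The largest called fold changes belonged to genes of low level or of single cells. By the rule of largest change with the same direction in both libraries, the first 15 were Hba-a2, Hba-a1, Prl2c3, Nos2, Mbp, Hbb-bs, Pou2f2, Car2, Ccl20, C4b, Ido1, Il33, Gm32051, Aqp8 and Ccl2. The haemoglobin genes Hba-a2, Hba-a1 and Hbb-bs had log2 fold changes of 4.18, 3.80 and 2.45, but 1 cell held 96.5%, 96.1% and 97.2% of the positives' UMIs in replicate 1, and their near-identical copies make the split of reads between them uncertain. The 4 erythroid markers summed to 672 CPM in the positives of replicate 1 against 71.4 CPM in its negatives, and to 12.8 CPM against 10.4 CPM in replicate 2. Mbp, a myelin gene of oligodendrocytes, was at 8.26 CPM in the positives of replicate 2 against 0.571 CPM, and 1 cell held 84.9% of these UMIs. Car2 (91.7%) and C4b (81.1%) were likewise carried by 1 cell in replicate 2, and Prl2c3 by 1 cell in each library (74.6% and 66.7%). For Nos2, inducible nitric oxide synthase, these shares were 71.4% and 59.3%. Pou2f2, a lymphoid transcription factor that NF-kB can induce, was spread over more cells, at 2.91 CPM and 2.38 CPM against 0.837 CPM and 0.171 CPM (2.39, SE 0.44), with at most 15.6% of its positive UMIs from 1 cell. Ido1, which degrades tryptophan, was at 3.73 CPM and 2.04 CPM against 0.837 CPM and 0.857 CPM (1.78, SE 0.39). For Ido1 1 cell held 31.7% of the positives' UMIs in replicate 1 and another 44.4% in replicate 2. With the cell holding most of a gene's UMIs left out of each sum, 86 of the 151 higher genes and 32 of the 54 lower ones were still called. Besides Id3 and Mmp3, the list members Bcl3, Ereg, Pfkp, Egln3, Vegfc, Pdgfb, Tgfb1, Lgals9, Sesn2, Ifit3, Cmpk2 and Col3a1 lost their call in this way, with edgeR adjusted p from 0.056 to 0.57, as did Tmsb4x (0.060).

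Nfkbia, Ier3 and Med24 were called higher in all 19 alternative analyses, and Ccl2, Irf1 and Idh1 in 18. When each cell was thinned to 10000 UMIs, 6 genes remained called and all 6 were higher: Hbb-bs, Nfkbia, Ier3, Ccl2, Irf1 and Med24. With Nras at or over 2000 CPM, which left 107 and 89 positive cells before matching, 6 were called higher, namely Ccl2, Nfkbia, Ier3, Tnip3, Med24 and Idh1, and 0 lower. The median of the NF-kB list lay between 0.15 and 0.42 in these 19 analyses, that of the interleukin-6 family list between 0.28 and 0.67, that of the chemokine list between 0.16 and 0.76 and that of the hypoxia list between 0.09 and 0.21. The medians of the G2 and M phase list (-0.24 to 0.09) and of the type I interferon list (-0.11 to 0.28) changed sign.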

How the data were processed

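Per the labels' protocols, the authors processed the reads with Cell Ranger 3.1, aligned them to mm10 with STAR and deposited counts of UMIs per gene and barcode. The labels also mention bringing runs to equal depth, but library totals differed, so the deposited counts were used as raw counts. The annotation was not given in the sources used here; 30934 of 31053 gene identifiers were found in GENCODE M21, used for coordinates. Cells were gated as described above. Clusters came from scanpy 1.11.5 (2000 variable features without Csf3, 30 components, 15 neighbours, Leiden resolution 0.5), and scrublet (expected rate 0.04) called doublets, which were kept.

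Each positive cell was matched to 2 negatives of its library by optimal assignment on log2 UMIs, at most 0.25 apart. Csf3 was removed and counts were summed per library and class. edgeR 4.0.16 in R 4.3.3 (TMM, filterByExpr, quasi-likelihood, library block, 1 residual degree of freedom, common dispersion 0.0015, infinite prior degrees of freedom) tested 11681 genes with Benjamini-Hochberg adjustment at 0.05. The SE was the log2 fold change without its sign, divided by the square root of the test's F statistic. The code was checked on simulated data with a single spread for all genes. The simulation held no genes carried by 1 cell or 1 library, so it does not cover such calls. DESeq2 1.42.0 was an alternative; it gave no adjusted p for 6115 genes. The library pairs the sums, since both classes came from the same droplets. Negatives include cells whose Csf3 went uncaptured, and every cell of a sum shares its library. Members, lists and tests were chosen with earlier results of these data known. Named genes were Csf3 and Nras, the 15 highest and 10 lowest called genes with the same direction in both libraries and at least 50 UMIs, called list members or otherwise up to 4 abundant ones, and neighbours and markers as counts with extremes. The genes called by both tools, the other genes given as examples (Hbb-bt, Tnip3 and uncalled or low list members), the promoters shown and 4 alternatives were picked after values were seen.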

Additional observations from a re-analysis of the deposited data

How the results depend on the processing

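Against 151 genes higher and 54 lower, the counts were 14 and 0 with DESeq2, 20 and 5 with no replicate block (the library pairing dropped), 6 and 0 with cells thinned to 10000 UMIs, 6 and 0 with Nras of at least 2000 CPM, 69 and 19 with a mitochondrial share of at most 10 percent, 98 lower with no matching, and 30 lower with matching on the mitotic share as well. In analyses chosen after seeing the data they were 87 and 35 with the top cell of each gene left out, 61 and 29 for cells with exactly 1 Csf3 UMI, 56 and 19 without cells of 10 or more Csf3 UMIs, and 60 and 17 with matching within clusters. The other 6 planned settings for higher genes and lower genes alike (1 negative per positive, depth bins, at least 2 Csf3 UMIs, doublets left out, Nras of at least 500 CPM, at least 20000 UMIs) and DESeq2's size factors or no low-count filter in edgeR stayed within 1.5 times. The mitochondrial limit removed 1 positive cell and redrew the partners, and the cause of the lower count was not tested. The mean share of gated cells with Csf3 was 16.4% and 5.14% after thinning; leaving out a replicate gave 15.8% to 17.1%, and a Csf3 level of 7.65 CPM to 9.08 CPM.

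Log2 fold changes that changed sign were as follows, and apart from the settings named the cause was not tested. With Nras of at least 2000 CPM, Hba-a2 had -1.15, Hba-a1 -1.24, Hbb-bs -2.56 and Hbb-bt -0.79. Without cells of 10 or more Csf3 UMIs, Hba-a1 had -0.23, Hbb-bs -1.67 and Hbb-bt -0.36. With the top cell left out, Hbb-bt had -0.047 and Mmp3 0.61. Mmp3 also had 1.08 with 1 negative per positive, 0.80 in depth bins, 2.44 with matching on mitotic share, 1.28 with at least 2 Csf3 UMIs, 0.98 with Nras of at least 500 CPM and 1.04 within clusters. For exactly 1 Csf3 UMI, Aqp8 had -0.067 and Bnip3 -0.020. With at least 2, Ifit2 had 0.82, Ifit3 0.84, Rsad2 0.038 and Cmpk2 0.52. With 1 negative per positive, Ifit3 had 0.037 and Col3a1 0.11. With no matching, Birc5 had 0.051. The ratios of the single libraries, with no test, ran from -0.24 in replicate 1 to 2.60 in replicate 2 for Csf2, from 2.54 to -0.20 for Cxcl9, from 1.52 to -0.28 for Cxcl10, from -1.90 to 0.17 for Mmp3, from -0.015 to 0.46 for Bnip3, from 0.17 to -0.71 for Ifit3, from 0.12 to -0.99 for Rsad2 and from 5.98 to -0.013 for Hbb-bt.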
